A study of Mus musculus with 62 samples.

Results

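Haem scavenging, synthesis and breakdown were followed in the liver through 8 genes, taken by symbol from a table of 47643 gene symbols, and all 8 passed a filter on low values that left 12160 genes for testing. They are Hp and Hpx, which encode plasma carriers of haemoglobin and haem, the receptor genes Cd163 and Lrp1, and the enzyme genes Hmox1, Blvra, Blvrb and Alas1. Livers came from female mice that were 2 months old and received melanoma cells that cause cachexia (CAC, 22 livers), melanoma cells that do not (NCAC, 20 livers) or a mock injection (Con, 20 livers). They were taken 2, 4, 6 and 8 weeks later, with 5 livers per arm and week and 7 for CAC at 8 weeks, 62 libraries in all. The sample labels give the strain as C57BL6/J, the design text gives NCI Ath/nude, and which of them applies could not be settled. No label names the melanoma lines, so each tumour arm stands for a line known by its label only.

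Values are TPM (transcripts scaled to gene length and to a fixed sum in each library). The number of reads behind them is not stated, and counting error is therefore unknown. Differences are between group means of log2(TPM + 1), with the standard error and the adjusted p of limma, and a gene is called at an adjusted p under 0.05. This scale understates the change of genes near 1 TPM.

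Haptoglobin binds haemoglobin that has left red cells, and haemopexin binds free haem, so that both stay out of the kidney and do less oxidative harm. Macrophages take up haemoglobin through CD163, which in humans binds the haptoglobin-haemoglobin complex, and LRP1 takes up haem bound to haemopexin. Inside cells haem oxygenase opens the haem ring to give biliverdin, iron and carbon monoxide, and biliverdin reductases turn biliverdin into bilirubin. Hepatocytes make much haem for their cytochromes P450, and 5-aminolevulinate synthase 1 controls how fast.

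Both carrier genes were called higher in CAC than in Con livers from 4 weeks on. Of the 2 receptor genes 1 was called higher at 6 and 8 weeks, with a difference of like size but no call at 4 weeks. Among the 4 enzyme genes 0 were called higher at any week. Against Con, 0 of the 8 genes were called at 2 weeks, where 0.00822% of all tested genes were called, and 1 of the 8 had an unadjusted limma p under 0.05, as had 10.7% of all tested genes. At 4 weeks 2 were higher (Hp and Hpx), against 1.30% of all tested genes called higher and 0.609% called lower. At 6 weeks 3 were higher (Hp, Hpx and Lrp1), against 5.00% of all tested genes called higher and 10.3% called lower. At 8 weeks the same 3 genes were higher and 2 were lower (Blvra and Blvrb), against 5.87% of all tested genes called higher and 35.3% called lower. The median difference over the 8 genes was -0.10, 0.37, 0.16 and 0.52 at 2, 4, 6 and 8 weeks, while over all tested genes it was -0.07, -0.05, -0.12 and -0.21. After median-of-ratios rescaling the median over all tested genes at 8 weeks was 0, 12.8% of genes were called higher and 13.9% lower, and of the 8 genes the same 3 were higher and 0 were lower.

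**Figure D1:**
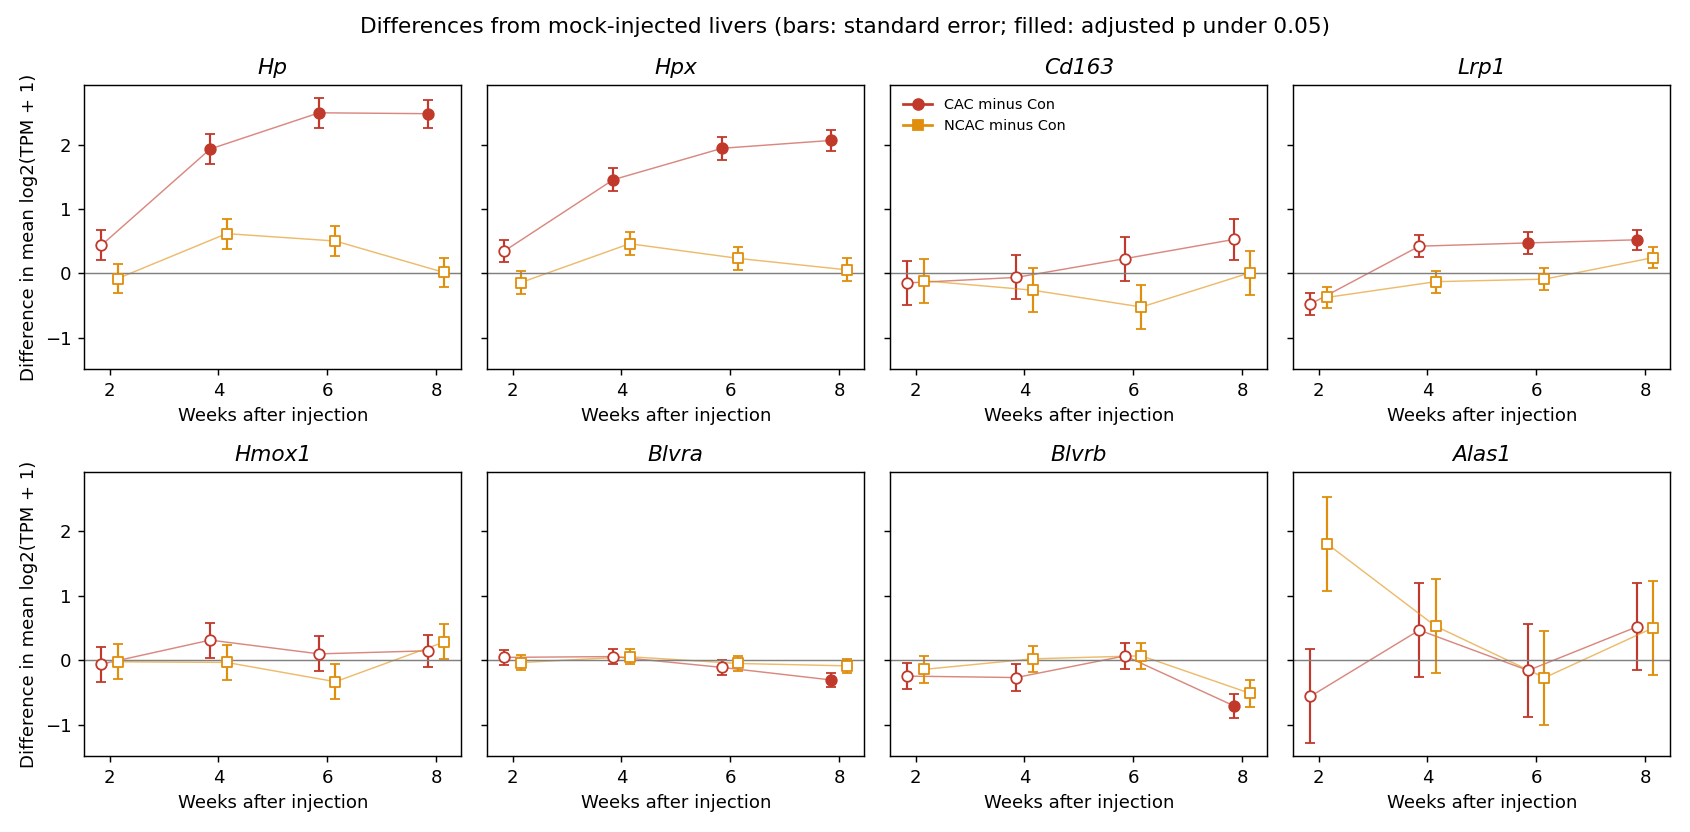
Differences from Con in mean log2(TPM + 1) for the 8 genes at 2, 4, 6 and 8 weeks, CAC minus Con as circles and NCAC minus Con as squares, with bars for the standard error and filled symbols for an adjusted p under 0.05. Hp reached 2.48 and Hpx 2.07 in CAC at 8 weeks, no NCAC symbol is filled, and the bars of Alas1 are the widest among the 8 genes.

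Hp, on chromosome 8 at 109575128 to 109579172 (mm10, minus strand), encodes haptoglobin, a plasma protein that hepatocytes secrete and that belongs to the acute phase proteins. At 2 weeks it stood at 2804, 4081, 6802, 4315 and 3279 TPM in the 5 CAC livers, against 2615, 3153, 2877, 3346 and 3041 TPM in the 5 Con livers. At 4 weeks the values were 6268, 15347, 7119, 9674 and 5948 TPM in CAC livers, against 2264, 1830.1, 2801, 1846 and 2262 TPM in Con livers. The ranges overlapped at 2 weeks and lay apart at 4 weeks. At 6 weeks Hp had 18156, 12077, 16637, 15009 and 10172 TPM in CAC livers, against 3876, 1636, 2451, 2719 and 2308 TPM in Con livers. At 8 weeks it had 10016, 18292 and 18885 (lowest, median and highest of 7) TPM in CAC livers, against 3911, 3179.6, 2768, 2679 and 2511 TPM in Con livers. Each CAC liver of 4, 6 and 8 weeks was above each Con liver of the same week.

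The Hp difference was 0.44 ± 0.23 at 2 weeks (adjusted p = 0.495), 1.93 ± 0.23 at 4 weeks (adjusted p = 6.32e-08), 2.50 ± 0.23 at 6 weeks (adjusted p = 1.7e-11) and 2.48 ± 0.21 at 8 weeks (adjusted p = 4.32e-13) by limma. At 8 weeks this is 5.59-fold. The step from 6 to 8 weeks in CAC minus Con was -0.01 ± 0.32 (adjusted p = 0.987, 95% interval -0.65 to 0.62), and the CAC ranges of these weeks overlapped. Leaving out replicate 3 of CAC at 8 weeks, the lowest library of that group, gave a difference of 2.60 at 8 weeks.

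Hpx, on chromosome 7 at 105591613 to 105600137 (mm10, minus strand), encodes haemopexin, also secreted by hepatocytes. The 250 bases before its start in RefSeq (GRCm38.p6, chr7:105600117-105600366, minus strand, 5′ to 3′) are shown because Hpx is the gene with the smallest adjusted p of the 8 at 8 weeks. Capitals mark matches to the motifs searched.
Hpx: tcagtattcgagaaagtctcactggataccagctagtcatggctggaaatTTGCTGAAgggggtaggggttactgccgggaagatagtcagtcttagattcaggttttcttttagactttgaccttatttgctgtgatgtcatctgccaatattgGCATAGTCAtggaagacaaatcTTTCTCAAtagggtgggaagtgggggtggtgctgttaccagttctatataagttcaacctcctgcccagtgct
The match at position -200 from the start fits TTGCNNAA, a C/EBP-type motif, and since every TTGCNNAA is also a TTNNGNAA on one of the strands, it fits that looser interleukin-6-response-type motif too. Another TTNNGNAA match lies at -73, and at -95 there is TGACNNNGC, an antioxidant-response-type motif, read on the other strand. Both strands were searched over 300 bases, 250 before and 50 after the start, and of 32851 RefSeq promoters of that length 10.8% held TTGCNNAA, 40.7% TTNNGNAA and 12.4% TGACNNNGC. Of the 8 windows found for 6 of the 8 genes, 1 held TTGCNNAA, 2 TTNNGNAA and 3 TGACNNNGC. A match describes letters and is not evidence that a factor binds.

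Hpx stood at 5198, 5231, 8710.5, 5962 and 4623 TPM in CAC livers at 2 weeks, against 3583, 4905, 4750.2, 4984 and 4675 TPM in Con livers. At 4 weeks it had 9033, 16362, 8067, 12636 and 9022 TPM in CAC livers, against 4489.8, 3859.7, 4819.8, 3309 and 3158 TPM in Con livers. As for Hp, the ranges overlapped at 2 weeks and lay apart at 4 weeks. At 6 weeks Hpx had 20594, 13454, 17491, 18089.9 and 13348 TPM in CAC livers, against 5627, 3919, 4394, 4619 and 3091 TPM in Con livers. The 8-week values were 12946, 20655 and 21819 (lowest, median and highest of 7) TPM in CAC livers, against 5294, 4782, 3929, 4447 and 4796 TPM in Con livers. All CAC livers of 6 and 8 weeks were above all Con livers of those weeks. The differences were 0.35 ± 0.18 (adjusted p = 0.479), 1.46 ± 0.18 (adjusted p = 7.44e-08), 1.94 ± 0.18 (adjusted p = 1.13e-11) and 2.07 ± 0.16 (adjusted p = 2.31e-14) at 2, 4, 6 and 8 weeks by limma, the last being 4.19-fold.

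**Figure D2:**
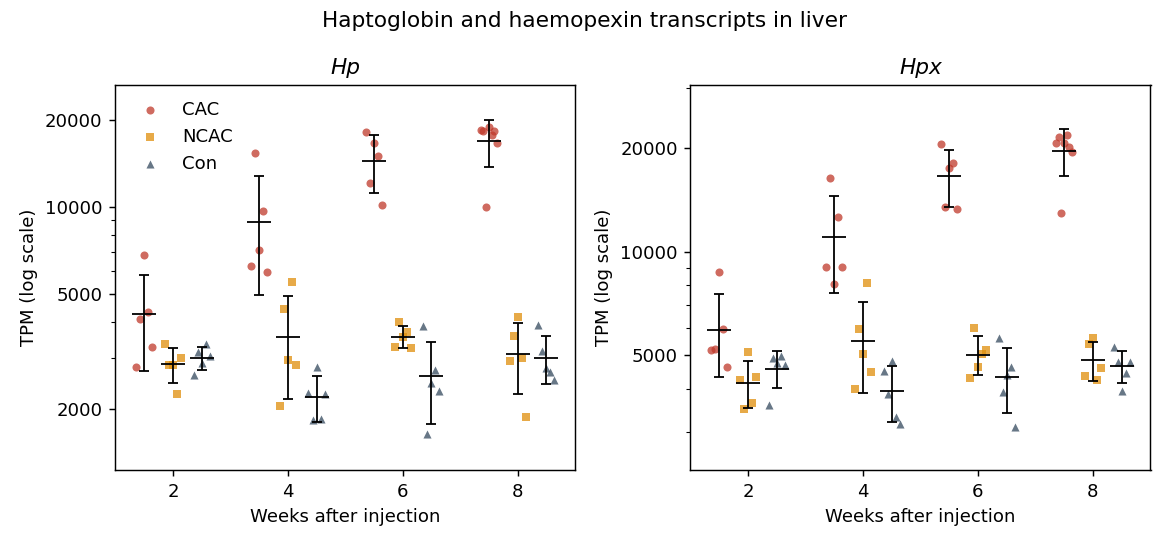
Hp and Hpx in TPM on a log axis against weeks after injection, 1 point per liver, with CAC, NCAC and Con side by side at each week and black bars for the mean and SD. CAC livers averaged 16920 TPM of Hp and 19630 TPM of Hpx at 8 weeks and 1 CAC liver of that week lies below the rest for both genes.

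Together Hp and Hpx took 1.02% ± 0.313, 1.99% ± 0.730, 3.10% ± 0.633 and 3.66% ± 0.612 of the TPM in CAC livers at 2, 4, 6 and 8 weeks (mean ± SD, n = 5, 5, 5 and 7). In Con livers the share was 0.759% ± 0.0825, 0.613% ± 0.103, 0.693% ± 0.166 and 0.766% ± 0.0977 (n = 5 each). By mean TPM Hpx ranked 8 and Hp 9 among all genes in CAC at 8 weeks, against 29 and 43 in Con. The Hp difference exceeded the Hpx difference at every week, and the ratio of Hp to Hpx TPM had a median of 0.855 in CAC livers at 8 weeks (range 0.774 to 0.914), against 0.665 in Con livers (range 0.523 to 0.739). The ranges of the ratio did not overlap at 8 weeks, and no test was made of it.

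The library with the lowest Hp and Hpx in CAC at 8 weeks was replicate 3, with 10016 TPM of Hp and 12946 TPM of Hpx. The summed level of 9 erythroid markers (haemoglobin chains and other red cell genes) was also the highest of that group there, at 16020 TPM, against a group median of 430.7 TPM. Its part in the Hp and Hpx values was not tested. Without it the Hpx difference at 8 weeks was 2.16.

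Within groups Hp and Hpx went together. After each library's group mean was taken away, their log2(TPM + 1) values over 62 libraries had a Pearson r of 0.83 and a Spearman rho of 0.82, both with a permutation p of 1e-05, the smallest that 100000 permutations can give (adjusted over 60 relations, 0.00015 and 0.0003). Without the 2 libraries farthest from the median of Hpx the r was 0.79, and it was 0.94, 0.77 and 0.66 within CAC, NCAC and Con.

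The trend of CAC minus Con over the 4 weeks, per step of 2 weeks, was 0.67 ± 0.10 for Hp (adjusted p = 6.89e-06) and 0.56 ± 0.08 for Hpx (adjusted p = 1.11e-06). With Lrp1 these were 3 of the 8 genes with a called trend, all upward, while 3.35% of all tested genes had a called upward trend and 12.3% a called downward one. For the step from 6 to 8 weeks 0 of the 8 and 0% of all tested genes were called (1 of the 8 and 18% of all at an unadjusted p under 0.05). For Con livers of 8 against 2 weeks 0 of the 8 and 0.296% of all were called (0 of the 8 and 10.1% of all unadjusted). Against NCAC livers, Hp in CAC livers was not called at 2 weeks (0.52 ± 0.23, adjusted p = 0.294) and was higher by 1.31 ± 0.23 at 4 weeks (adjusted p = 0.000261), 1.99 ± 0.23 at 6 weeks (adjusted p = 6.03e-09) and 2.47 ± 0.21 at 8 weeks (adjusted p = 4.84e-13). For Hpx the CAC minus NCAC differences at these weeks were 0.49 (adjusted p = 0.224), 0.99 (adjusted p = 0.000302), 1.71 (adjusted p = 5.54e-10) and 2.01 (adjusted p = 8.07e-14) by limma. The comparisons with Con and with NCAC share the CAC livers. Counts among the 8 genes against NCAC were 0, 2, 3 and 2 higher and 0 lower at 2, 4, 6 and 8 weeks, beside 0%, 1.11%, 6.55% and 5.09% of all tested genes called higher and 0%, 0.156%, 5.54% and 43.1% called lower. At 2 weeks 3 of the 8 had an unadjusted limma p under 0.05 in that comparison, as had 14.6% of all tested genes.

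Of the receptors, Lrp1 rose in CAC livers and Cd163 was not called. Lrp1, on chromosome 10 at 127538161 to 127621148 (mm10, minus strand), encodes a large endocytic receptor for haemopexin with haem and for many other ligands. The 250 bases before its RefSeq start (GRCm38.p6, chr10:127621149-127621398, minus strand) are shown because Lrp1 was the receptor gene called, with motif matches in capitals.
Lrp1: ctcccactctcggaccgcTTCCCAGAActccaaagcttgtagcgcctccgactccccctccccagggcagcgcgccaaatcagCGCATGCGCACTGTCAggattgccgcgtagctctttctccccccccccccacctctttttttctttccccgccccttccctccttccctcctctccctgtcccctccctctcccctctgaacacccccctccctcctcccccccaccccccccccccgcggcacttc
The match at -232 is TTCNNNGAA, a STAT-type motif held by 8.30% of the 32851 promoters, and that at -167 is CGCATGCG, an NRF1-type motif held by 1.87%. The TGACNNNGC match at -160, on the other strand, shares 1 base with it. Neither TTGCNNAA nor TTNNGNAA matched this window.

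Lrp1 had 73.0, 73.9, 97.8, 72.5 and 83.5 TPM in CAC livers at 2 weeks, against 96.6, 138, 101, 112 and 111 TPM in Con livers. At 4 weeks it had 114, 72.3, 151, 95.6 and 118 TPM in CAC livers, against 82.8, 99.986, 61.9, 77.4 and 79.9 TPM in Con livers. CAC livers were mostly below Con livers at 2 weeks, and at 4 weeks the ranges overlapped. At 6 weeks Lrp1 had 108, 95.1, 144, 106 and 117 TPM in CAC livers, against 92.3, 59.5, 75.7, 91.7 and 91.6 TPM in Con livers. Values at 8 weeks were 99.4, 131 and 155 (lowest, median and highest of 7) TPM in CAC livers, against 104, 59.3, 110.0, 76.1 and 104 TPM in Con livers. The ranges lay apart at 6 weeks and overlapped at 8 weeks.

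The Lrp1 differences were -0.47 ± 0.17 (adjusted p = 0.334), 0.42 ± 0.17 (adjusted p = 0.235), 0.47 ± 0.17 (adjusted p = 0.047) and 0.52 ± 0.16 (adjusted p = 0.00621) at 2, 4, 6 and 8 weeks by limma, the last being 1.44-fold. The trend of CAC minus Con was 0.30 ± 0.07 per 2 weeks (adjusted p = 0.0029), and in NCAC minus Con the corresponding value was 0.19 ± 0.08 (adjusted p = 0.45). Both trends share the Con livers, whose Lrp1 averaged 112 ± 16.1 TPM at 2 weeks and 90.6 ± 21.9 TPM at 8 weeks (SD, n = 5 each). The call at 6 weeks was lost when any of 7 single libraries was left out, namely replicates 1, 3, 4 and 5 of CAC and 2, 3 and 5 of Con at 6 weeks, with differences of 0.36 to 0.52 and adjusted p of 0.0527 to 0.137. It was also lost with the 20 highest genes removed from the TPM sum (0.32, adjusted p = 0.122) and with no filter on low values (adjusted p = 0.0749). That at 8 weeks was lost without replicate 2 of Con (0.38, adjusted p = 0.0506), the lowest Con liver, and without the libraries that hold pancreatic transcripts (0.26, adjusted p = 0.191). The trend without those libraries was 0.21 (adjusted p = 0.0801). In these fits 9 libraries with at least 100 TPM of the pancreatic gene Ctrb1 were dropped, among them replicates 2 and 4 of Con at 8 weeks, which had 59.3 and 76.1 TPM of Lrp1. Against NCAC livers, Lrp1 was higher in CAC livers by 0.56 ± 0.17 at 6 weeks (adjusted p = 0.0187), a call lost without replicate 3 of CAC (adjusted p = 0.0767) or replicate 4 of NCAC (adjusted p = 0.0505). At 8 weeks it stood at 0.28 ± 0.16 (adjusted p = 0.137), and at 0.58 after median-of-ratios rescaling (adjusted p = 0.000787).

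Markers of sinusoidal endothelium and stellate cells were set beside Lrp1. Of all tested genes 5.00% were called higher and 10.3% lower in CAC against Con at 6 weeks. At 8 weeks these shares were 5.87% and 35.3% (12.8% and 13.9% after rescaling), and those at 6 weeks after rescaling are not given here. At 6 weeks 2 of 8 markers of sinusoidal endothelium were called higher and 0 lower (4 and 0 after rescaling), and they summed to 135.6 to 229.7 TPM in CAC livers (median 200.4), against 101.1 to 145.8 TPM in Con livers (median 111.1). Of 7 stellate cell markers 0 were called higher and 1 lower at 6 weeks (1 and 0 after rescaling), with sums of 221.4 to 424.3 TPM in CAC livers (median 280.4), against 165 to 247.1 TPM in Con livers (median 191.1). At 8 weeks, of the 8 markers of sinusoidal endothelium, 4 were called higher in CAC livers relative to Con livers and 1 was called lower (4 and 0 after rescaling). Their summed level was 90.7 to 230.3 TPM in CAC livers, against 81.5 to 144 TPM in Con livers. Of the 7 stellate cell markers 0 were called at 8 weeks (1 higher after rescaling), with sums of 124 to 318 TPM in CAC livers, against 107 to 219 TPM in Con livers. Their part in the Lrp1 difference was not tested.

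Cd163, on chromosome 6 at 124304656 to 124330527 (mm10, plus strand), marks macrophages, which in the liver are mainly Kupffer cells. It was the lowest of the 8 genes on average, between 1.35 and 10.9 TPM over the 62 livers. At 8 weeks it had 1.69, 6.50 and 9.70 (lowest, median and highest of 7) TPM in CAC livers, against 4.57, 2.09, 3.53, 1.96 and 10.2 TPM in Con livers. The ranges overlapped, with 1 low CAC liver and 1 high Con liver. Means ± SD in CAC livers were 3.56 ± 0.933, 4.64 ± 2.27, 6.78 ± 2.54 and 6.53 ± 2.79 TPM at 2, 4, 6 and 8 weeks (n = 5, 5, 5 and 7), and in Con livers 4.24 ± 2.06, 4.85 ± 2.55, 5.62 ± 1.99 and 4.48 ± 3.40 TPM (n = 5 each). The differences at these weeks were -0.15, -0.06, 0.23 and 0.53, with adjusted p of 0.905, 0.973, 0.67 and 0.176 by limma, and the 95% interval at 8 weeks was -0.10 to 1.16. Without replicate 4 of CAC at 8 weeks the difference was 0.76 (adjusted p = 0.0434), and without replicate 5 of Con it was 0.83 (adjusted p = 0.0319). Without the libraries with pancreatic transcripts it was 0.08 (adjusted p = 0.868).

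Several other Kupffer cell and macrophage markers were lower in CAC than in Con livers at 8 weeks. Of 14 on a list that leaves Cd163 out, 1 was higher in CAC livers (Cd14, also on the acute phase list) and 8 were lower, among them Lyz2 (-1.60 ± 0.34, adjusted p = 0.000168) and the resident Kupffer cell gene Timd4 (-0.85 ± 0.22, adjusted p = 0.00157), and after median-of-ratios rescaling 1 was higher and 5 were lower. Of all tested genes 35.3% were lower as deposited and 13.9% after rescaling. Against NCAC livers at 8 weeks 1 of the 14 was higher in CAC livers and 0 were lower, beside 5.09% of all tested genes called higher and 43.1% called lower. Their summed level was 245 to 955 TPM in CAC livers (median 454) and 393.7 to 658.1 TPM in NCAC livers (median 510.2), against 727.5 to 1165 TPM in Con livers (median 816), and none was at 0. All NCAC sums thus lay below all Con sums of 8 weeks, as did the CAC sums except that of replicate 3 (955 TPM). In Con livers of 2, 4 and 6 weeks the median sum was 632.5, 477.3 and 690.4 TPM. Set against the mean log2 level of these markers in the same liver, Cd163 lay at a median of -1.82 in CAC livers (range -2.61 to -1.06), -2.32 in NCAC livers (range -2.61 to -2.0) and -2.85 in Con livers (range -3.92 to -1.81). These ranges overlapped, and the Con medians at 2, 4 and 6 weeks were -2.43, -2.31 and -2.29. Replicates 2 and 4 of Con at 8 weeks, which hold pancreatic transcripts, lay at -3.92 and -3.7, with marker sums of 1165 and 918.4 TPM. Replicates 1, 3 and 5 lay at -2.68, -2.85 and -1.81, with sums of 727.5, 738.4 and 816 TPM. In whole tissue, fewer cells of a type and less RNA per cell cannot be told apart.

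Haem oxygenase 1, the inducible enzyme that opens the haem ring, was not called in any comparison. Hmox1, on chromosome 8 at 75093621 to 75100589 (mm10, plus strand), averaged 14.0 ± 1.69, 17.6 ± 3.78, 18.4 ± 1.36 and 18.8 ± 10.5 TPM in CAC livers at 2, 4, 6 and 8 weeks (SD, n = 5, 5, 5 and 7). In Con livers it averaged 15.1 ± 4.55, 14.0 ± 2.88, 17.3 ± 2.75 and 14.7 ± 1.52 TPM (n = 5 each). The spread was widest in CAC at 8 weeks, where Hmox1 had 4.86, 17.2 and 38.2 (lowest, median and highest of 7) TPM, against 15.8, 15.2, 12.8, 13.3 and 16.2 TPM in Con livers. The CAC range enclosed the Con range. Its top was replicate 3, the liver with the most erythroid transcripts and 955 TPM of summed Kupffer markers, and its bottom was replicate 4, with 55.15 TPM of erythroid and 245 TPM of Kupffer markers, the lowest sums of the group. Their part in the Hmox1 values was not tested. The differences were -0.06, 0.31, 0.10 and 0.15, with adjusted p of 0.956, 0.682, 0.832 and 0.671 by limma, and the 95% interval at 8 weeks was -0.36 to 0.65.

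Within groups Hmox1 went with Cd163, with a Pearson r of 0.55 (permutation p = 0.00011, adjusted 0.00132) and a Spearman rho of 0.50 (permutation p = 0.00021, adjusted 0.00252) over 62 libraries. Without the 2 libraries farthest from the median of Hmox1 the r was 0.50 and it was 0.61, 0.64 and 0.40 within CAC, NCAC and Con. The genes most like Hmox1 over the 62 libraries, group differences included, were Spic (Pearson r 0.69), which encodes a transcription factor of iron-recycling macrophages, and the receptor genes C5ar1 (0.64) and Fpr2 (0.61). For Cd163 they were Tmem2 (0.78), the macrophage and endothelial gene Mrc1 (0.77) and Sema6d (0.76).

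The biliverdin reductases were lower in CAC livers at 8 weeks in TPM as deposited, and these calls did not hold under median-of-ratios rescaling. Blvra, on chromosome 2 at 127070665 to 127097084 (mm10, plus strand), encodes biliverdin reductase A, which makes bilirubin, and it varied least of the 8 genes, from 5.28 to 10.96 TPM over the 62 livers. At 8 weeks it had 5.28, 7.32 and 10.2 (lowest, median and highest of 7) TPM in CAC livers, against 9.40, 10.047, 8.44, 9.91 and 8.22 TPM in Con livers. Most CAC livers lay below the lowest Con liver, and the highest CAC liver lay above the highest Con liver. The difference was -0.31 ± 0.10 (adjusted p = 0.0158), and at 2, 4 and 6 weeks it was 0.04, 0.06 and -0.11 (adjusted p = 0.917, 0.887 and 0.505) by limma. Blvrb, on chromosome 7 at 27447978 to 27466144 (mm10, plus strand), encodes a flavin reductase that, in humans, is also the biliverdin reductase of fetal life. It had 57.7, 90.5 and 145 (lowest, median and highest of 7) TPM in CAC livers at 8 weeks, against 129, 213, 157, 114 and 118 TPM in Con livers. The ranges overlapped, with the lower CAC livers below all Con livers. The difference was -0.71 ± 0.19 (adjusted p = 0.00255), after -0.25, -0.27 and 0.07 at 2, 4 and 6 weeks (adjusted p = 0.661, 0.626 and 0.852).

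After median-of-ratios rescaling the 8-week difference was -0.08 for Blvra (adjusted p = 0.574) and -0.46 for Blvrb (adjusted p = 0.074). With the 20 highest genes removed from the TPM sum neither call was lost. Blvra was then also called lower in CAC minus NCAC at 8 weeks (-0.36, adjusted p = 0.0041 by limma). Its trend of CAC minus Con was called downward as well (-0.18 per 2 weeks, adjusted p = 0.00567). In CAC minus Con at 8 weeks Blvra also lost its call without replicate 1 of CAC (-0.24, adjusted p = 0.0615) and without the libraries with pancreatic transcripts (-0.23, adjusted p = 0.139). Blvrb averaged 124 ± 38.0 TPM at 6 weeks and 91.1 ± 32.7 TPM at 8 weeks in CAC livers, 122 ± 28.8 and 100.3 ± 19.2 TPM in NCAC livers, and 115 ± 14.7 and 146 ± 41.0 TPM in Con livers (SD, n = 5, but 7 for CAC at 8 weeks). At 8 weeks its difference was -0.52 ± 0.21 in NCAC minus Con (adjusted p = 0.352) and -0.19 ± 0.19 in CAC minus NCAC (adjusted p = 0.41). The highest Blvrb value of all 62 livers, 212.8 TPM, was in replicate 2 of Con at 8 weeks, which also had the most Ctrb1, at 1906 TPM. Blvrb was still called lower in CAC than in Con livers at 8 weeks without the libraries with pancreatic transcripts. Within groups Blvra went with the clock output gene Dbp (Pearson r 0.57, adjusted permutation p = 0.0055, Spearman rho 0.45, adjusted permutation p = 0.014, 0.50 without the 2 farthest libraries, and 0.68, 0.48 and 0.25 within CAC, NCAC and Con).

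**Figure D3:**
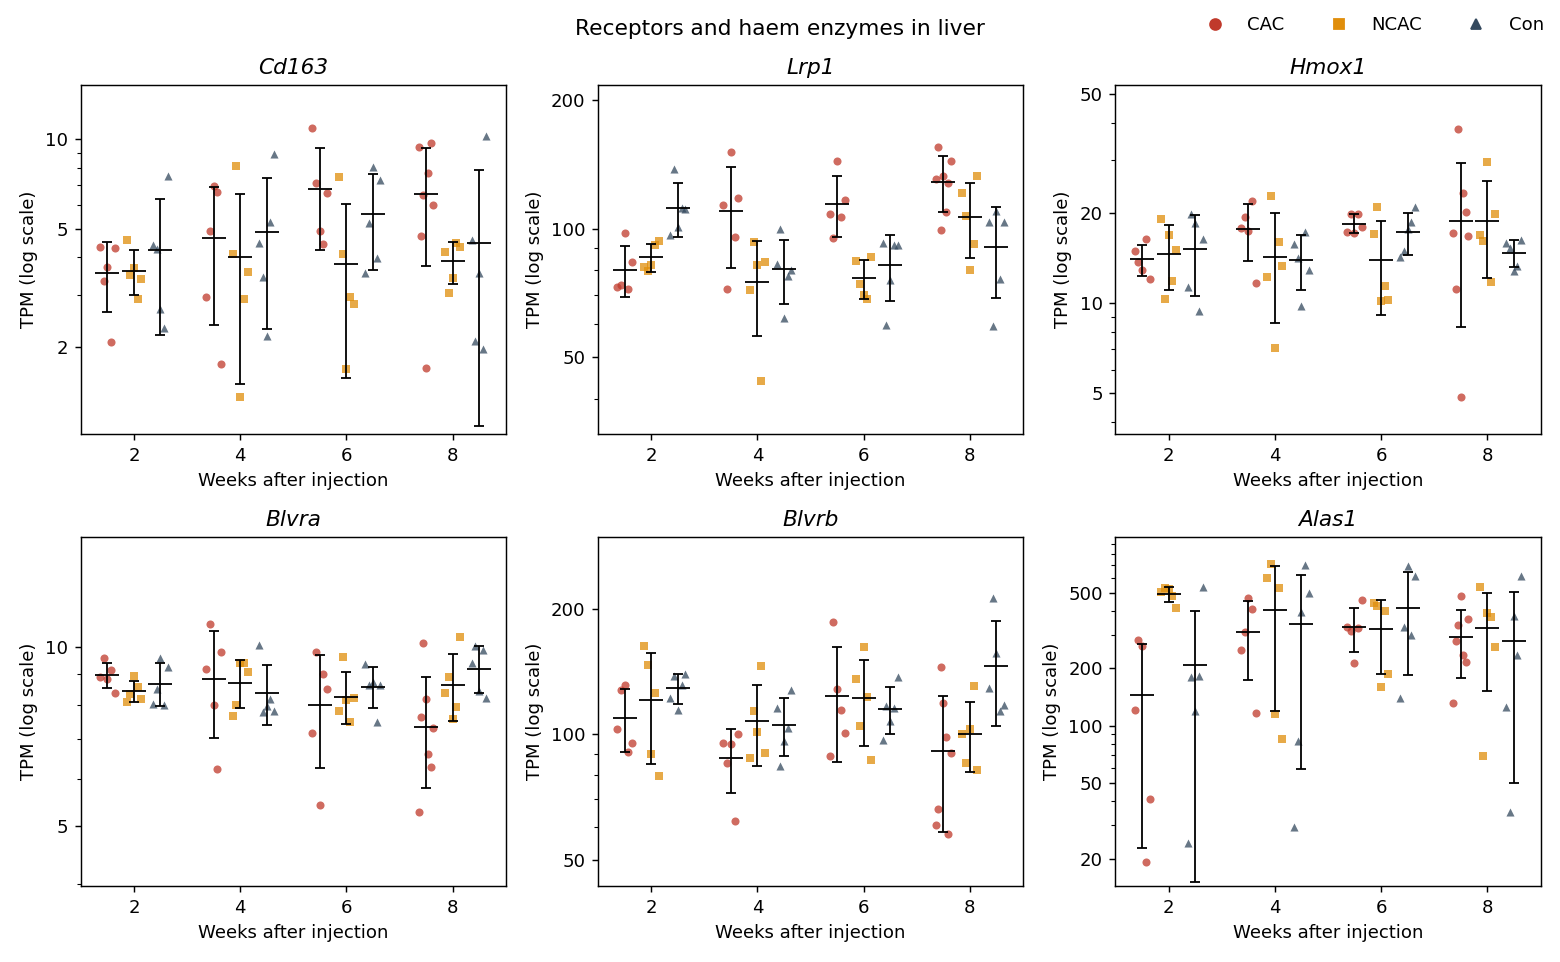
Cd163, Lrp1, Hmox1, Blvra, Blvrb and Alas1 in TPM on log axes against weeks after injection, 1 point per liver, with CAC, NCAC and Con side by side and black bars for the mean and SD. The arms overlap for most genes and weeks, and Alas1 has by far the widest spread within groups, from 19.1 to 704.5 TPM over all livers.

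Alas1, on chromosome 9 at 106233455 to 106248654 (mm10, minus strand), encodes the enzyme that starts haem synthesis in the liver, and its transcript follows the day and feeding. The hour at which each liver was taken is not stated. RefSeq gives 2 starts, and 250 bases before the one at the lower coordinates (GRCm38.p6, chr9:106247731-106247980, minus strand) are shown because Alas1 is the gene whose livers differed most within groups.
Alas1: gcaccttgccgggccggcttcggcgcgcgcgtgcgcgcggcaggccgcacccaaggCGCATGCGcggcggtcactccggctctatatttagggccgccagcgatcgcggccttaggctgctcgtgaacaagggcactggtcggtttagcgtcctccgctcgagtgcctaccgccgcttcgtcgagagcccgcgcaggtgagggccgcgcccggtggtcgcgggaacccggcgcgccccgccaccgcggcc
The capitals mark CGCATGCG, the NRF1-type motif, at -194. Neither CACGTG, the E-box bound by clock factors, nor TAGGTCA, a REV-ERB-type motif, matched the windows of either Alas1 start, and 7.15% and 2.61% of the 32851 promoters held them.

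At 2 weeks Alas1 had 121, 282, 263, 19.1 and 41.0 TPM in CAC livers, against 507, 529, 526, 481 and 418 TPM in NCAC livers and 24.1, 179.8, 119.7, 183 and 534 TPM in Con livers. CAC and Con livers were widely spread, while NCAC livers were all high and close together, above each CAC liver. At 4 weeks it had 249, 313, 471, 411 and 117 TPM in CAC livers, against 29.2, 83.2, 398, 696 and 501 TPM in Con livers. At 6 weeks it had 331, 315, 214, 327 and 456 TPM in CAC livers, against 139, 329, 689.8, 299 and 612 TPM in Con livers. At 8 weeks it had 132, 279.9 and 479 (lowest, median and highest of 7) TPM in CAC livers, against 125, 35.1, 379, 235 and 613 TPM in Con livers. CAC and Con ranges overlapped at every week. The differences were -0.56 ± 0.73, 0.47 ± 0.73, -0.16 ± 0.73 and 0.52 ± 0.68, with adjusted p of 0.8, 0.847, 0.904 and 0.563 by limma, and the 95% interval at 8 weeks was -0.83 to 1.87.

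Within groups, Alas1 went with the clock gene Per2 and against Arntl and Nr1d1. Nr1d1 encodes the haem-binding repressor REV-ERB alpha, Arntl the activator BMAL1, and Per2 a repressor of the clock loop. After group means were taken away, the Pearson r of Alas1 over 62 libraries was 0.86 with Per2, -0.62 with Arntl and -0.55 with Nr1d1, and Spearman rho was 0.78, -0.58 and -0.59. All these had a permutation p of 1e-05 or 2e-05 (adjusted over 60 relations, 0.00015 for r and 0.0003 for rho), where 1e-05 is the smallest that 100000 permutations can give. Without the 2 libraries farthest from the median of the clock gene in question the r values were 0.83, -0.60 and -0.57. Leaving out the libraries farthest from the median of Alas1 was not tried. Within CAC, NCAC and Con the r with Per2 was 0.73, 0.79 and 0.95, with Arntl -0.63, -0.64 and -0.67, and with Nr1d1 -0.32, -0.88 and -0.66. With Dbp it was 0.15 (permutation p = 0.247, adjusted 0.592) and rho was 0.05. The genes most like Alas1 over the 62 libraries were Usp2 (Pearson r 0.92), a deubiquitinase gene under clock control, Coq10b (0.91) and Per2 (0.88).

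**Figure D4:**
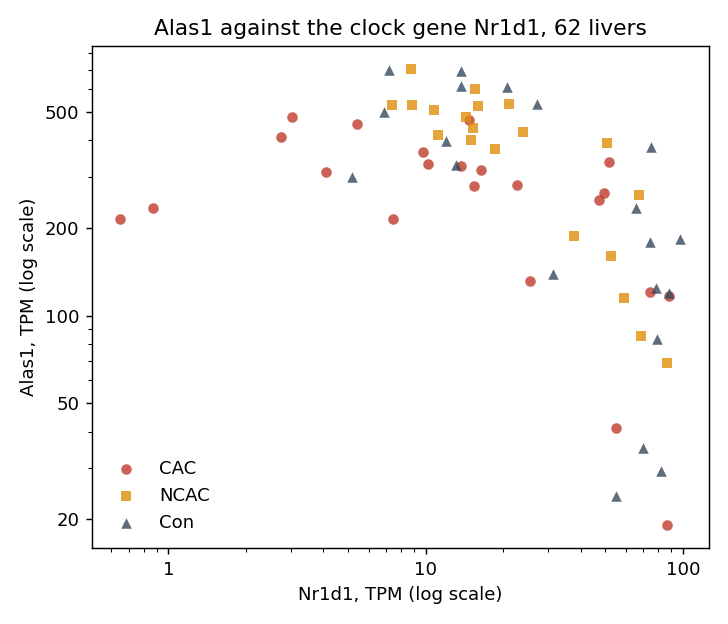
Alas1 against Nr1d1 in TPM, both on log axes, 1 point per liver for the 62 livers, by arm. The livers with the lowest Alas1, down to 19.1 TPM, lie toward the high end of Nr1d1, and CAC livers with Nr1d1 near or under 1 TPM are not the highest in Alas1.

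The clock values also differed between groups. Nr1d1 averaged 57.6 ± 24.8 TPM in CAC, 11.9 ± 3.31 TPM in NCAC and 68.5 ± 28.3 TPM in Con livers at 2 weeks, and 16.2 ± 17.6, 48.9 ± 29.5 and 60.9 ± 26.8 TPM at 8 weeks (SD, n = 5, but 7 for CAC at 8 weeks). With 2 clock covariates that have a mean of 0 in each group, the standard error of an Alas1 difference between groups of 5 shrank to 0.29 from 0.73, and Alas1 was called in NCAC minus Con at 2 weeks (1.81, adjusted p = 0.000105) and in CAC minus NCAC at 2 weeks (-2.37, adjusted p = 2.36e-07). Such covariates leave in the difference what the groups' own clock values add to it. With covariates that carry the groups' clock differences as well, chosen after seeing the data, these values were -0.17 (adjusted p = 1) and -0.24 (adjusted p = 0.999). In the same fit CAC minus Con at 8 weeks was -0.95 ± 0.30 (adjusted p = 0.0115), against 0.52 without covariates. Whether the clock values differ by hour of collection or by group cannot be told apart.

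In NCAC livers, set against Con, 0 of the 8 genes were called at any week by limma, and 2, 2, 1 and 1 had an unadjusted p under 0.05 at 2, 4, 6 and 8 weeks, as had 10.7%, 7.68%, 9% and 10.9% of all tested genes. Of all tested genes 0%, 0%, 0% and 0.181% were called. Hp had 2042, 4421, 2942, 5490.4 and 2837 TPM in NCAC livers at 4 weeks and 2926, 3579, 4145, 3002 and 1873 TPM at 8 weeks. The Con ranges given above overlapped these. The Hp differences were -0.08 ± 0.23, 0.62 ± 0.23, 0.50 ± 0.23 and 0.02 ± 0.23, and at 4 weeks the 95% interval was 0.15 to 1.08 (adjusted p = 0.617). For Hpx they were -0.14, 0.46, 0.23 and 0.06 (adjusted p = 0.825, 0.617, 0.655 and 0.917). The trend of NCAC minus Con was 0.02 ± 0.10 per 2 weeks for Hp (adjusted p = 0.963) and 0.04 ± 0.08 for Hpx (adjusted p = 0.893). At 2 weeks Lrp1 had 81.3, 79.7, 82.2, 91.4 and 93.7 TPM in NCAC livers, all below the lowest Con liver, with a difference of -0.37 ± 0.17 (adjusted p = 0.418). Cd163, Hmox1 and Blvra differed from Con by 0.01, 0.28 and -0.09 in NCAC livers at 8 weeks (adjusted p = 0.99, 0.709 and 0.788).

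By TPM, which compares genes per length, the order in Con livers at 8 weeks was Hpx (4650.0 ± 504 TPM), Hp (3010.0 ± 561 TPM), Alas1 (277 ± 227 TPM), Blvrb (146 ± 41.0 TPM), Lrp1 (90.6 ± 21.9 TPM), Hmox1 (14.7 ± 1.52 TPM), Blvra (9.20 ± 0.836 TPM) and Cd163 (4.48 ± 3.40 TPM), each as mean ± SD of 5. The ranges of Alas1 and Blvrb overlapped, as did those of Blvra and Cd163, and the other neighbours in this order lay apart. Hp and Hpx were each other's nearest or next nearest gene over the 62 libraries (Pearson r 0.98), beside Lcn2 (0.97) and Itih3 (0.96) for Hp and Orm1 (0.98) and Apcs (0.97) for Hpx, all 4 of them acute phase genes. The nearest genes were Fn1 (0.86), Myh9 (0.82) and Ccdc6 (0.81) for Lrp1, Dpy30 (0.79), Psmd10 (0.78) and Fopnl (0.77) for Blvra, and Hras (0.80) and Stard10 (0.76) for Blvrb. These values include differences between groups and describe likeness only.

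Among the other enzymes and carriers of haem synthesis, 8 of 12 were lower in CAC livers at 8 weeks. The counts of this and the next lists stand against 35.3% of all tested genes lower and 5.87% higher at 8 weeks, and 13.9% lower and 12.8% higher after rescaling. Of the 12 tested, 0, 0, 0 and 0 were higher and 0, 0, 4 and 8 lower at 2, 4, 6 and 8 weeks. Alad, whose enzyme follows ALAS1 in the pathway, fell by 1.49 ± 0.20 (adjusted p = 9.56e-08), Urod by 0.55 ± 0.11 (adjusted p = 7.9e-05) and the glycine carrier gene Slc25a38 by 0.28 ± 0.08 (adjusted p = 0.00527) on the log2 scale at 8 weeks. The median of the 12 was -0.45, against -0.21 over all tested genes. After median-of-ratios rescaling 0 were higher and 2 were lower at 8 weeks, namely Alad at -1.24 (adjusted p = 2.16e-06) and Urod at -0.30 (adjusted p = 0.0286). The erythroid synthase gene Alas2, named after its values were seen, is on this list and was not called. It had 1.89, 4.94 and 65.1 (lowest, median and highest of 7) TPM in CAC livers, against 9.76, 14.4, 18.6, 10.3 and 12.8 TPM in Con livers. The CAC range enclosed the Con range, and its top was again replicate 3.

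Among 7 tested genes of haem carriers and binding proteins, 0, 1, 1 and 1 were higher in CAC livers and 0, 0, 1 and 5 lower, relative to Con livers, at 2, 4, 6 and 8 weeks. The one that rose was Ambp (0.70 ± 0.10 at 8 weeks, adjusted p = 1.23e-07), which encodes alpha-1-microglobulin, a haem-binding plasma protein from hepatocytes. Pgrmc1, whose membrane protein binds haem, fell by 0.83 ± 0.13 (adjusted p = 1.17e-06), the porphyrin transporter gene Abcb6 by 0.86 ± 0.14 (adjusted p = 2.15e-06) and the haem transporter gene Slc48a1 by 0.51 ± 0.11 (adjusted p = 0.000137). The other lower genes, named after their values were seen, were Slc46a1 and Hebp1. After rescaling Ambp was higher and the first 3 of the lower genes stayed lower at 8 weeks. Of 6 other genes of haem breakdown and bilirubin handling, 0, 0, 1 and 1 were higher and 0, 0, 2 and 1 lower. Hmox2, the constitutive haem oxygenase, was higher by 0.44 ± 0.11 at 8 weeks (adjusted p = 0.000836), and Slco1b2, a hepatocyte uptake carrier for bilirubin and other anions, was lower (-0.68 ± 0.20, adjusted p = 0.00576). The bilirubin glucuronide exporter gene Abcc2 had -0.67 ± 0.28 (adjusted p = 0.0511), and Por, whose reductase feeds electrons to haem oxygenase and P450s, had 0.54 ± 0.31 (adjusted p = 0.156). After rescaling Hmox2 was higher and 0 were lower.

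Of 12 haem-sensing factors and regulators of ALAS1, 0, 0, 0 and 2 were higher and 0, 0, 1 and 2 lower at 2, 4, 6 and 8 weeks, and 3 were higher and 2 lower at 8 weeks after rescaling, where Mafk, named after its values were seen, was the added one. Nfe2l2, which encodes the stress regulator NRF2, had -0.51 ± 0.13 (adjusted p = 0.0011), Nr1d1 -2.32 ± 0.71 (adjusted p = 0.00705), Foxo1 0.63 ± 0.21 (adjusted p = 0.015) and Ppargc1a 0.61 ± 0.24 (adjusted p = 0.0334) at 8 weeks. FOXO1 and the coactivator PGC-1 alpha, encoded by Ppargc1a, raise ALAS1 in fasting. Of 9 iron storage and release genes, 0, 0, 0 and 1 were higher and 0, 0, 1 and 5 lower, with the ferritin light chain gene Ftl1 at -0.85 ± 0.16 (adjusted p = 2.68e-05), the iron chaperone genes Pcbp1 at -0.51 ± 0.10 (adjusted p = 4.93e-05) and Pcbp2 at -0.32 ± 0.08 (adjusted p = 0.00154), and Aco1, whose protein binds iron-responsive RNA elements, at -0.44 ± 0.11 (adjusted p = 0.00143). The higher gene was Ncoa4, which encodes the ferritin autophagy receptor, and the other lower gene was the ferritin heavy chain gene Fth1, both named after their values were seen. After rescaling Ncoa4 was higher, and Ftl1 and Pcbp1 were lower.

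Of 10 haem-containing enzymes, 0, 0, 0 and 1 were higher and 0, 2, 4 and 9 lower at 2, 4, 6 and 8 weeks, with a median of -0.79 at 8 weeks. Cat, the catalase gene, fell by 1.17 ± 0.17 (adjusted p = 5.11e-07), and the P450 genes Cyp2d10, Cyp1a2 and Cyp2e1 fell by 0.69 ± 0.10, 1.46 ± 0.22 and 0.82 ± 0.13 (adjusted p = 7.44e-07, 9.86e-07 and 3.64e-06). Reads of Cyp2d10 may be shared with near-identical Cyp2d copies, and how they were assigned is not stated. The higher gene, named after its values were seen, was Tdo2, which encodes the haem enzyme tryptophan dioxygenase. After rescaling 1 was higher and 8 were lower.

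**Figure D5:**
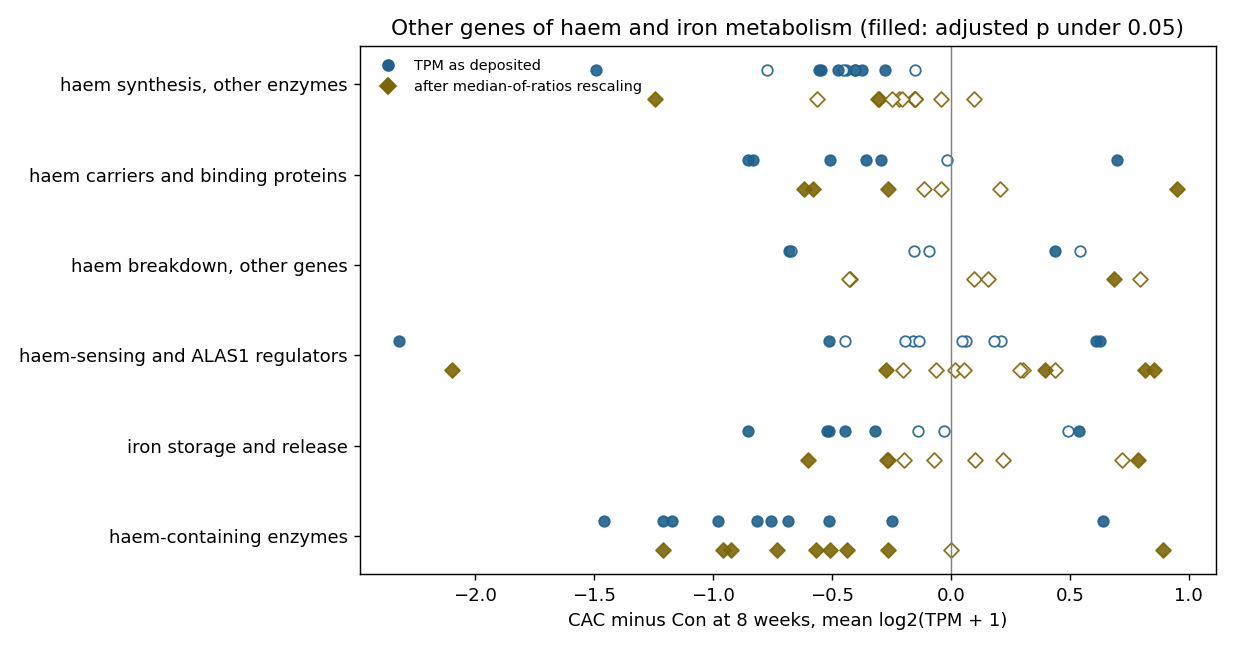
CAC minus Con at 8 weeks in mean log2(TPM + 1) for the tested genes of 6 lists, 1 symbol per gene, as circles for TPM as deposited and diamonds after median-of-ratios rescaling, filled at an adjusted p under 0.05. Diamonds lie to the right of the circles, and the list of haem-containing enzymes has 9 genes called lower as deposited and 8 after rescaling.

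Some facts of the whole series touch these results. Hepatocyte markers were measured for 10 of 10 genes and summed to between 91060 and 142100 TPM over the 62 livers, and the melanoma markers Mlana and Tyrp1 were at 0 in all of them, which leaves the other 4 of 6 melanoma markers with sums of 4.603 to 24.1 TPM. At 8 weeks these sums were 11.05 to 24.06 TPM in CAC livers and 9.266 to 24.05 TPM in NCAC livers, against 7.33 to 13.95 TPM in Con livers. Dct was called higher in CAC than in Con livers (0.56 ± 0.23, adjusted p = 0.0477 by limma). It was not called in NCAC minus Con (0.46, adjusted p = 0.5) or in CAC minus NCAC (0.11, adjusted p = 0.727). Erythroid markers summed to 55.15 to 16020 TPM (median 430.7) in CAC livers and 646 to 4072 TPM (median 3405) in NCAC livers at 8 weeks, against 1373 to 4717 TPM (median 1962) in Con livers. The 6 T and NK cell markers summed to 0.625 to 5.13 TPM in CAC livers and 1.835 to 3.473 TPM in NCAC livers, against 3.16 to 29.1 TPM in Con livers. Pancreatic or muscle transcripts marked 12 libraries. Of 30 tested genes of an acute phase list that leaves out Hp and Hpx, 27 were called higher in CAC livers at 8 weeks relative to Con livers and 0 lower, and in CAC livers the 31 genes of the list took 72380 to 227300 TPM, against 35220 to 44720 TPM in Con livers. TPM has a fixed sum, so a rise of this list lowers the TPM of other genes by construction.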

How the data were processed

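RNA of 62 mouse livers was sequenced after a stranded mRNA library kit, per the labels' protocols, and the values used are the TPM that the authors deposited, 1 value per gene symbol and library, 47643 symbols in all, summing to 1000000 in each library. The submitters' processing notes name the genome build mm10, while aligner, quantifier and read depth are not stated there or in the labels, and no counting interval can be given. All columns were mapped to samples by name (0 were left out). The labels call the samples of a group biological replicates, but do not tie them to separate cages or days.

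The 12160 genes that reached 1 TPM in 5 or more libraries were fitted on log2(TPM + 1) with limma 3.58.1 (R 4.3.3), with 12 group means, a variance trend and Benjamini-Hochberg adjustment within each of 16 comparisons. Fold changes are on that scale. Relations between genes used permutation tests, two-sided, on deviations from group means (Python 3.11.15, NumPy 2.4.6, pandas 2.3.3; figures with matplotlib 3.10.9). The fit was tested on simulated data, with normal values drawn independently for each gene and library. Variation shared between genes and the fixed TPM sum were not part of that test.

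All 8 genes are named, and of each pathway list the up to 4 genes with the smallest p in CAC against Con at 8 weeks, and for each of the 8 the 3 most correlated genes, predicted genes left out. A few genes that this rule would name are not reported here. The 8 genes and all lists were chosen with earlier results of these data known. Flvcr1 and Flvcr2, on the carrier list, were not matched by symbol. Positions of genes are from GENCODE vM21 (mm10), and promoters are from RefSeq (GRCm38.p6), matched by symbol for 6 of the 8 genes (not for Hp and Hmox1).

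Alternatives were median-of-ratios rescaling, quantile normalization, removal of the 20 highest genes or of the acute phase list from the TPM sum, a pseudocount of 0.1, no filter, a mean of at least 5 TPM, a robust fit, a fit within each week, a replicate block, 2 clock covariates (together 85% of the variance of 15 clock genes around their group means), leaving out libraries with pancreatic or muscle transcripts, and leaving out each library in turn. Clock covariates that also carry group differences were added after seeing the data.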

Additional observations from a re-analysis of the deposited data

Results flagged for a closer look

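In CAC at 8 weeks, replicate 3 lay far below the other 6 livers for both carrier genes, with 10015.898 TPM of Hp (the next was 16690.796 TPM) and 12946.09 TPM of Hpx (the next was 19530.99 TPM). On the log2(TPM + 1) scale the gap to the next liver was 0.805 and 0.788 of the group's range, against a critical value of 0.568 for 7 samples. The same liver had the highest Hmox1 (38.2 TPM), Blvra (10.2 TPM), Blvrb (145 TPM) and Alas2 (65.1 TPM) of its group. In Con at 2 weeks replicate 1 had 3582.602 TPM of Hpx, below the next at 4675.078 TPM, and in Con at 4 weeks replicate 1 had 10.073 TPM of Blvra, above the next at 8.184 TPM. For these the gap on that log2 scale was 0.806 and 0.811 of the range, against a critical value of 0.71 for 5 samples. Of 96 groups of values examined 4 held such a sample, where chance at 1 in 20 gives 4.8.

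The difference between CAC and Con changed over the weeks for 3 genes by a test of the change itself, with 0.6694 per 2 weeks for Hp, 0.564 for Hpx and 0.3043 for Lrp1 on the log2 scale (adjusted p = 6.89e-06, 1.11e-06 and 0.0029 by limma). Without the libraries that hold pancreatic transcripts the Lrp1 value was 0.21 (adjusted p = 0.0801).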

How the results depend on the processing

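Hp and Hpx stayed higher in CAC than in Con livers at 8 weeks under all alternatives run, with differences of 2.28 to 2.77 and 1.90 to 2.35. The count of the 8 genes called at 8 weeks, 5 as deposited, was 3 after median-of-ratios rescaling, quantile normalization or removal of the acute phase list from the TPM sum (3 higher, 0 lower), and 3 without libraries with pancreatic, or pancreatic or muscle, transcripts (2 higher, 1 lower). After median-of-ratios rescaling 12.8% of all tested genes were called higher and 13.9% lower. For the other alternatives in this section the share of all tested genes called is not given, and their counts stand without it. A fit within each week called 1 gene at 2 weeks in CAC against Con (Lrp1, lower, adjusted p = 0.0187) in place of 0, and 0 in CAC against NCAC at 4 weeks in place of 2 (adjusted p = 0.0535 for Hp and 0.0676 for Hpx), and lost Blvra in CAC against Con at 8 weeks (adjusted p = 0.0595). With 2 clock covariates 1 gene (Alas1) in place of 0 was called at 2 weeks in NCAC against Con and in CAC against NCAC. With covariates that carry group differences, Alas1 in CAC against Con at 8 weeks reversed to -0.95 (adjusted p = 0.0115), and Blvra was at -0.15 (adjusted p = 0.232). The causes were not tested. Leaving out 1 library at a time gave 0 to 1 calls for the step from 6 to 8 weeks (Blvrb, -0.90, adjusted p = 0.0365, without replicate 3 of CAC at 8 weeks), 4 to 6 at 8 weeks and 2 to 3 at 6 weeks in CAC against Con. A replicate block gave 4 calls at 8 weeks in CAC against Con (Blvra -0.27, adjusted p = 0.0582) and changed no other count. The replicate numbers gave no sign of pairing the samples, which these values cannot exclude. Correlations of deviations had a median of -0.008 (range -0.639 to 0.608) over 330 pairs of libraries with the same number in different groups. Over 1430 pairs with different numbers the median was -0.002 (range -0.661 to 0.733). Over 3648 recomputed differences 31 calls were lost, 23 were gained and 253 signs changed, of which 1 had a call. Read depth is unknown, so its limit on genes of few TPM such as Cd163 cannot be given.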
